A study of Mus musculus with 6 samples.

Results

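Calbindin (Calb1), calretinin (Calb2), parvalbumin (Pvalb) and 6 neuronal calcium sensor genes (Hpca, Hpcal1, Hpcal4, Vsnl1, Ncald and Ncs1) were followed in 2 sorted populations of midbrain dopaminergic neurons from the substantia nigra, pars compacta (SNc). The 9 genes were taken by symbol from a table of 23337 gene symbols, and all 9 were among the 13175 genes with a mean normalized count of at least 10 over the 6 libraries, which were tested. The mice were adult C57BL/6 animals, and both groups carried the same 3 alleles: Sox6-FSF-Cre, a Cre at Sox6 that needs Flp recombinase, Th-2A-Flpo, which makes Flp in Th-expressing cells, and the RC-Frepe reporter. After papain dissociation, GFP+ neurons were collected as Sox6-expressing (Sox6+) and mCherry+ neurons as not expressing Sox6 (Sox6-). The sort thus rests on recombination by Flp and by Cre, which is permanent in a cell. A label can therefore reflect past as well as present expression. Since Cre reports Sox6 here, a Sox6-expressing cell in which Cre did not act on the reporter would count as Sox6-. Each group had 3 libraries, numbered 103, 825 and 1211, with between 10397924 and 12952768 reads in genes. The labels do not say whether they came from separate or pooled mice, so p-values measure the spread between these libraries, which may be technical. The question was how the 2 populations differ in gene expression.

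All of these proteins bind calcium through EF-hands, paired helices around a loop that holds the ion. Calbindin, calretinin and parvalbumin are chiefly known as buffers that take up calcium as it enters the cell. The neuronal calcium sensors instead change shape when they bind it and act on membranes, channels, receptors and kinases, and most carry an N-terminal myristoyl group. Dopaminergic neurons of the SNc pace themselves with a calcium current, and calbindin has long been used as a marker of the dorsal tier and of neighbouring populations, whose cells are relatively spared in Parkinson's disease.

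Sox6 itself lay between 389.0 and 840.5 in the Sox6+ libraries and between 18.1 and 103.6 in the Sox6- libraries, in normalized counts, the unit of all values here unless stated. All 9 dopaminergic marker genes examined, Th and Slc6a3 among them, were detected in all 6 libraries. Their summed value reached at least 102830.2 in every Sox6+ library, and in the Sox6- libraries it ran from 37767 to 128691, library 825 being the highest. GABAergic markers (11 genes) summed to 9112, 774 and 2440 in Sox6+ libraries 103, 825 and 1211 and to 18382, 5226 and 13955 in the Sox6- libraries in the same order. Of these sums Sst made 3958, 3164 and 5814 in the Sox6- libraries and at most 1.97 in the Sox6+ libraries. Gad1, at 4797, 0 and 1245 (Sox6+) against 7647, 509 and 2637 (Sox6-), overlapped between the groups. Sox6+ library 825 stood apart, with 28005 over 10 microglial and macrophage markers, against at most 42.5 in the other libraries, and with Gad1 and Gad2 at 0. Of that sum Lyz2 alone made 26494, with Tyrobp at 1035 and Cd68 at 387, while C1qa, C1qb and Aif1 were at 0. Oligodendrocyte markers summed to 2107 in that library and to at most 392 in the others. Glutamatergic markers (3 genes) gave 999, 163 and 764 for Sox6+ and 2608, 2263 and 4815 for Sox6-, without overlap. Most of these sums was Slc17a6, at 873, 163 and 764 against 2496, 2237 and 4815. Slc17a7 reached at most 126.3 (Sox6+ library 103) and Slc17a8 at most 26.2 (Sox6- library 825). Astrocyte markers (7 genes) gave 3047, 2727 and 3113 against 3965, 4379 and 7154, also without overlap, and of these sums Aldoc alone made 2724 to 7045. Endothelial and blood cell markers summed to at most 21.6 in any library.

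Hippocalcin (Hpca), a sensor that moves to membranes when calcium rises, was lower in Sox6+ neurons. Its value was 1072, 1185 and 1475 in Sox6+ libraries 103, 825 and 1211. The Sox6- neurons gave 2443, 3185 and 3746, in the same order. Every Sox6+ library lay below every Sox6- library, and the spread within each group was small beside the gap, with coefficients of variation of 16.7% and 20.9%. The means were 1244 ± 208 and 3125 ± 653 (SD, n = 3 each). On the log2(value + 1) scale the difference, Sox6+ minus Sox6-, was -1.32 (standard error 0.196, 95% interval -1.76 to -0.88), or 2.49-fold lower, and the adjusted p was 0.0345 (limma, adjusted by Benjamini and Hochberg's method across the 13175 genes). Hpca was the 1 gene of the 9 to pass the threshold of 0.05, against a background of 0.304% of all tested genes in either direction and 0.175% in the lower direction. A two-sided exact permutation test of Hpca alone gave p = 0.1, and with 3 libraries a group no smaller value is possible. The difference stayed between -1.49 and -1.18 under all 20 alternatives run, but the call was lost without Sox6+ library 825 or 1211 (adjusted p 0.0675 and 0.0721, limma) and without Sox6- library 825 or 1211 (0.0712 and 0.183). It was also lost with edgeR's quasi-likelihood test on the recovered reads (adjusted p 0.0697), with no filter on low values (0.053) and without trend and robust moderation in limma (0.214). Over all alternatives the adjusted p of Hpca ran from 3.18e-07 with DESeq2 to 0.505 without both libraries 1211. Exons of Tmem54, on the opposite strand, overlap those of Hpca, and Tmem54 was at 0 in all 6 libraries.

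Hpcal1 and Ncald, which encode close relatives of hippocalcin, showed the same order of the groups, with wider spread. Hpcal1, also called visinin-like protein 3, lay at 2217, 605 and 1197 in Sox6+ libraries 103, 825 and 1211. Its Sox6- values were 3296, 5352 and 5017. The groups did not overlap, and the Sox6+ libraries varied among themselves by more than 3-fold, with a coefficient of variation of 60.9%. The difference was -1.93 (standard error 0.463, 95% interval -3.03 to -0.82), which is the largest difference among the 9 genes, but its adjusted p was 0.207 (limma). Without Sox6+ library 825, in which Hpcal1 was lowest and macrophage markers were high, the difference was -1.45 (adjusted p 0.166, limma), and without Sox6+ library 103 it was -2.39 and passed (adjusted p 0.019), where 0.773% of tested genes passed in the lower direction.

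Neurocalcin delta (Ncald) is a sensor known to interact with clathrin and the cytoskeleton. It lay at 2691, 1305 and 1965 in the Sox6+ libraries, numbered as before. For Sox6- neurons the values were 5107, 3938 and 4161. Again no Sox6+ library reached the lowest Sox6- library, and the means were 1987 ± 693 and 4402 ± 620 (SD, n = 3 each). The difference was -1.20 (standard error 0.246, 95% interval -1.76 to -0.64), or 2.30-fold lower, with an adjusted p of 0.0983 (limma). Without Sox6+ library 103 it was -1.45 and passed (adjusted p 0.0138), and without Sox6+ library 825 it was -0.93 (adjusted p 0.126). Annotated exons of Gm49397, on the same strand, and of Gm28221, on the opposite strand, overlap those of Ncald. Neither was among the gene symbols with counts. Reads in the part shared with Gm49397 cannot be told apart by strand. For the part shared with Gm28221 this depends on the use of strand in counting, which is not stated.

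Hpca, Hpcal1 and Ncald were thus 3 of 9 genes with all Sox6+ values below all Sox6- values, where 9.19% of all tested genes showed this, and no gene of the 9 had the opposite order, shown by 7.86% of tested genes. In the authors' deposited table, from their DESeq2 test, the same 3 genes had adjusted p-values of 4.20e-07, 0.000427 and 0.000953, and 1.58% of the genes with an adjusted p were past 0.05 in that direction. DESeq2 on the recovered reads, nearly a repeat of that test on the same counts, called the same 3 (background 1.66% lower). EdgeR called 0 of the 9 (background 0.0455%), although 4 had an unadjusted p under 0.05, beside 10.0% of all tested genes. With limma 4 of the 9 also had an unadjusted p under 0.05, beside 11.4% of all tested genes. The median difference of the 9 genes was -0.48, beside -0.02 over all tested genes. Within Sox6+ neurons, the order of Hpcal1 and Ncald over libraries (103, then 1211, then 825) was also that of the summed GABAergic markers, while Hpca was lowest in library 103, where those markers were highest. In Sox6- neurons the order of Hpcal1 (825, then 1211, then 103) was the reverse of that of the GABAergic markers, and that of Ncald (103, then 1211, then 825) was the same. Like the 3 sensors, the summed GABAergic markers had a higher mean in Sox6- neurons, with overlap, and the glutamatergic and astrocyte sums were lower in every Sox6+ library. Sst made 3164 to 5814 of the Sox6- GABAergic sums, and Slc17a6 and Aldoc made most of the glutamatergic and astrocyte sums. The part of these transcripts in the differences of Hpca, Hpcal1 and Ncald was not tested. In sorted populations, fewer cells that express a gene and less RNA per cell cannot be told apart.

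**Figure D1:**
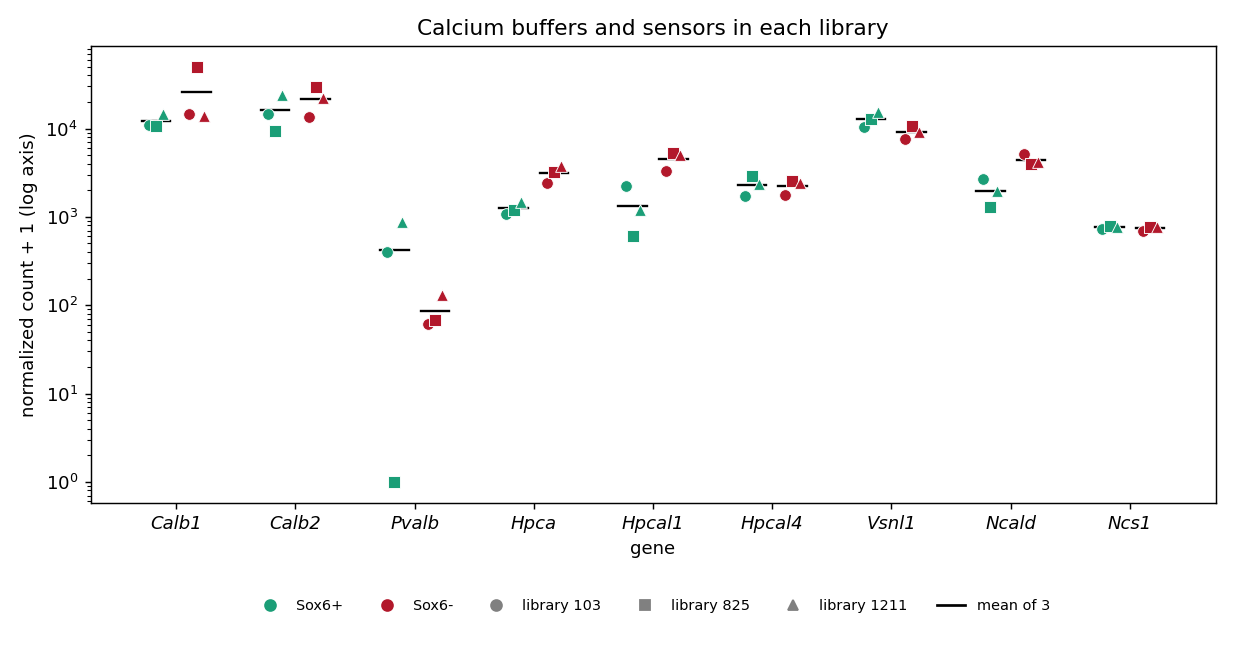
Normalized count plus 1 of each of the 9 genes on a log axis, with Sox6+ libraries in green, Sox6- libraries in red, a symbol shape for each library number and a bar for the mean of 3. Hpca, Hpcal1 and Ncald have all green points below all red points, Calb1 has a single red point at 50192, and Pvalb is at 0 in Sox6+ library 825.

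RefSeq windows upstream of the annotated start were at hand for 6 of the 9 genes (GRCm38.p6), and those of Hpca and Hpcal1 are shown because both genes were low in every Sox6+ library, with that of Vsnl1, the sensor with the opposite tendency, for contrast. Each is the 250 bases before a start site, 5′ to 3′ on the gene's strand: chr4:129121304-129121553 on the minus strand for Hpca (1 of 3 annotated starts), chr12:17690559-17690808 on the plus strand for Hpcal1, and chr12:11435652-11435901 on the minus strand for Vsnl1 (1 of 2 starts). Capitals mark AACAAT or its reverse complement ATTGTT, a core that SOX proteins recognise; both strands were searched.
Hpca: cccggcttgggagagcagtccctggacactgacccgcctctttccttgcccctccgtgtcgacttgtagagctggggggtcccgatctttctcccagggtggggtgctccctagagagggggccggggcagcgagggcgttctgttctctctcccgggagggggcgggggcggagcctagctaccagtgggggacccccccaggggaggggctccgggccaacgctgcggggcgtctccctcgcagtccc
Hpcal1: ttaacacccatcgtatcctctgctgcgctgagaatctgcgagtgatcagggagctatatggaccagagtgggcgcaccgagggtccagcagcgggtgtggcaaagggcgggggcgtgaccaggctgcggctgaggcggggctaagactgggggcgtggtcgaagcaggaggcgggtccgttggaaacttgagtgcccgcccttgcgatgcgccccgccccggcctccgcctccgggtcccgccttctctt
Vsnl1: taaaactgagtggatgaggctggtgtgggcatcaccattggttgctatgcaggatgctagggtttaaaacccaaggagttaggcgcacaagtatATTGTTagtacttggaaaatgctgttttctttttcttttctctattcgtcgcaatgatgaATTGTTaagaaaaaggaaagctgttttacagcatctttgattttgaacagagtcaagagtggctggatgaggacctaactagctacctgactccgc
The motif was in none of the 3 Hpca windows and not in that of Hpcal1, and the Vsnl1 window shown held 2 matches, beginning 156 and 96 bases before the start, while the other Vsnl1 window held none. The 2 windows of Pvalb and those of Hpcal4 and Ncs1 held none either, so its absence was not particular to Hpca and Hpcal1. Of 32851 windows of this length, 9.42% held at least 1 match. The windows of Hpca and Hpcal1 shown were rich in G and C, at 71.2% and 66.8%, with 16 and 22 CpG dinucleotides. The other Hpca windows had 51.2% and 58.8%, with 3 and 6 CpG. The Vsnl1 window shown had 41.6% and 4 and the other Vsnl1 window 58% and 14, so the composition of Hpca and Vsnl1 differed between their own starts. The medians over all windows were 52.4% and 6. These are letters in a window, with no measurement of binding.

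Vsnl1, which encodes visinin-like protein 1, a sensor known to affect the surface level of nicotinic receptors, tended the other way. Its value was 10331, 12947 and 15355 in Sox6+ neurons (103, 825 and 1211) and 7661, 10758 and 9162 in Sox6- neurons. The groups overlapped, because Sox6- library 825 lay above Sox6+ library 103. The difference was 0.48 (standard error 0.179, 95% interval 0.08 to 0.88), and with an adjusted p of 0.359 (limma) it did not pass. It was positive under all 20 alternatives, between 0.34 and 0.63, and had an adjusted p of 0.217 in the authors' deposited table.

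Ncs1 and Hpcal4 lay at much the same level in both groups. Ncs1 encodes neuronal calcium sensor 1, a regulator of dopamine D2 receptor desensitisation and of phosphatidylinositol 4-kinase. Its values were 734, 791 and 761 for Sox6+ neurons and 687, 773 and 767 for Sox6- neurons. These were the narrowest spreads among the 9 genes, with coefficients of variation of 3.8% and 6.5%. The difference was 0.04 with a 95% interval of -0.33 to 0.41 (adjusted p 0.95, limma), so a change of more than 1.33-fold in either direction lay outside the interval. Hpcal4, also called visinin-like protein 2, lay at 1730.4, 2891 and 2326 against 1749.9, 2533 and 2433 in libraries 103, 825 and 1211. In both groups library 103 was the lowest and library 825 the highest, and the difference was 0.04 with an interval of -0.45 to 0.53 (adjusted p 0.966, limma). The sign turned under 4 of 20 alternatives for Hpcal4 and 1 of 20 for Ncs1.

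**Figure D2:**
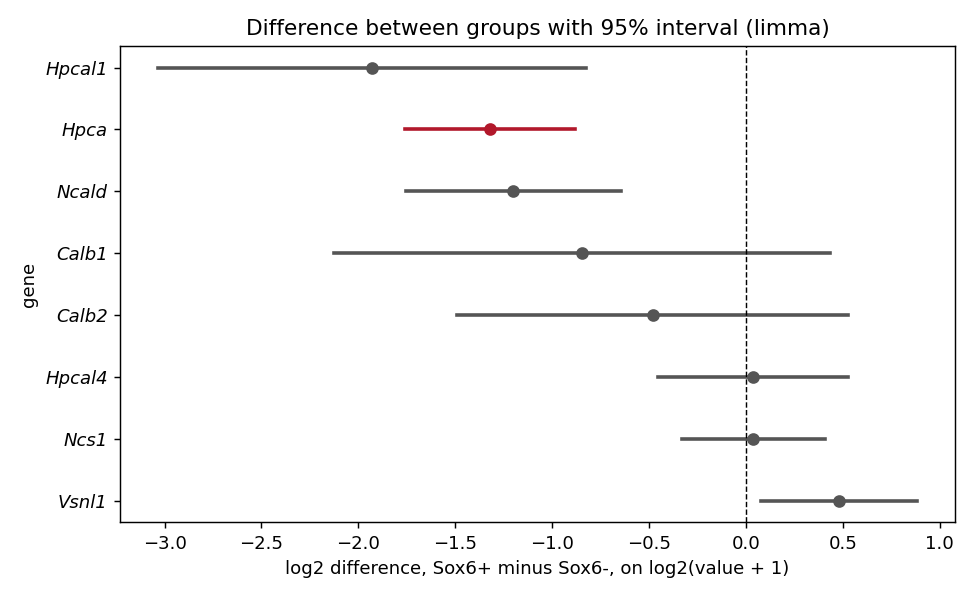
Log2 difference, Sox6+ minus Sox6-, with its 95% interval from limma for 8 of the 9 genes, the 1 past the threshold in red. The intervals of Hpcal1, Hpca and Ncald lie wholly below 0 and that of Vsnl1 wholly above, and the interval of Pvalb (-7.13 to 6.72) is left out for scale.

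Among the buffers, Calb1 was abundant in both groups and did not pass. It lay at 11091, 10608 and 14790.4 in Sox6+ libraries 103, 825 and 1211, while Sox6- neurons gave 14663, 50192 and 13763. A single library, Sox6- library 825, held more than 3 times the Calb1 of any other, while the other 5 lay within a narrow band that the groups shared. The difference was -0.85 (standard error 0.521, 95% interval -2.13 to 0.43, adjusted p 0.589, limma). Without that library it was -0.24 (adjusted p 0.657), and the Sox6- mean of 26206 ± 20777 (SD, n = 3) rests on it. Sox6- library 825 also had the highest summed dopaminergic markers of its group, 128691 against 42318 and 37767, and the lowest GABAergic ones, and their part in its Calb1 value was not tested.

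Calb2 encodes calretinin, which in the midbrain is found in dopaminergic neurons and other cells. Its values were 14758, 9318 and 24010.2 for Sox6+ neurons and 13456, 29805 and 22419 for Sox6- neurons. The groups interleaved, and the lowest and the highest value of all both came from libraries numbered 825. The difference was -0.48 with an interval of -1.49 to 0.53 (adjusted p 0.702, limma). It was -0.22 without Sox6- library 825 and -0.14 without Sox6+ library 825.

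Pvalb, the parvalbumin gene, is known chiefly as a marker of fast-spiking inhibitory neurons. It was at 400.5, 0 and 868.7 in Sox6+ libraries 103, 825 and 1211, while Sox6- neurons gave 60.4, 66.5 and 128.0. No read was counted in Sox6+ library 825, which allows a value of up to 3.42 (3 reads, counting error only), while the other Sox6+ libraries lay above all Sox6- libraries. The means were 423.1 ± 434.8 for Sox6+ and 85.0 ± 37.4 for Sox6- (SD, n = 3 each), yet the log2 difference was -0.20, since the single 0 weighs heavily on that scale (standard error 2.73, adjusted p 0.985, limma). Without Sox6+ library 825 it was 2.86 (adjusted p 0.0583), without Sox6- library 1211 it was 0.13, and with edgeR on the recovered reads it was 2.31 (adjusted p 0.671). The direction of the Pvalb difference therefore depended on that library and on the scale. In the same library Gad1 and Gad2 were also at 0, and their link to the Pvalb value was not tested.

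**Figure D3:**
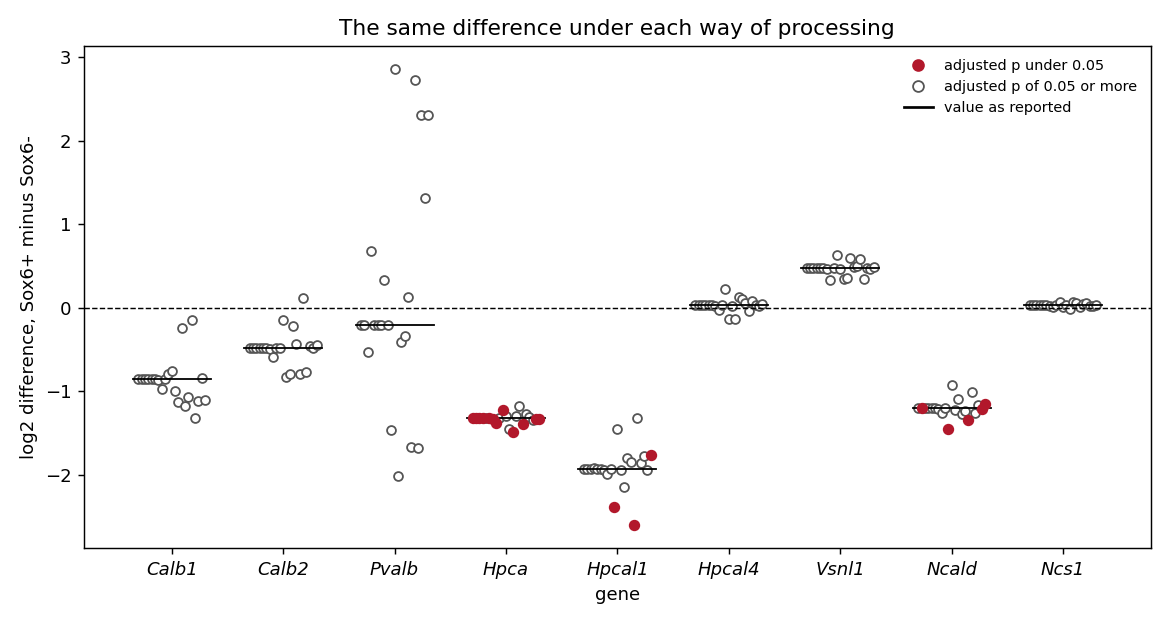
Log2 difference, Sox6+ minus Sox6-, for each of the 9 genes as reported (bars) and under each of 20 alternatives (circles, filled where the adjusted p was under 0.05). Hpca, Hpcal1, Ncald and Calb1 stay below 0 and Vsnl1 above 0 throughout, Ncs1 and Hpcal4 stay near 0, and Pvalb runs from -2.02 to 2.86.

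To compare the genes with each other, normalized counts were divided by the length of all annotated exons of each gene in kilobases (GENCODE M21). Calb2 was the highest of the 9 per kilobase in both groups, at 9196 ± 4262 (Sox6+) and 12561 ± 4697 (Sox6-; SD, n = 3 each), rank 44 and rank 16 of 11900 tested genes with a length. In Sox6+ neurons Vsnl1 (6584 ± 1285) and Calb1 (2510.0 ± 472) followed, without overlap between these 2 genes. Calb2 and Vsnl1 overlapped in range. Hpcal1, Hpcal4, Hpca, Pvalb and Ncald came next, from 790.2 down to 231.6, and each of these overlapped its neighbour, as did Ncald and Ncs1, which was last at 163.8 ± 6.2.

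In Sox6- neurons the order per kilobase was different in the middle. Calb1 (5408 ± 4288) and Vsnl1 (4700.4 ± 792) followed Calb2, and these 3 overlapped from neighbour to neighbour. Hpcal1 came next at 2687 ± 651 and Hpca at 1069 ± 224, each clear of both its neighbours. Ncald (513.0 ± 72.3) overlapped Hpcal4 (419.3 ± 79.8), then Ncs1 (159.6 ± 10.4) and, last, Pvalb (81.6 ± 35.9) stood apart. Hpcal1 was rank 965 among genes of Sox6+ neurons and rank 234 among those of Sox6- neurons, and Hpca rank 1597 and rank 671. Ncs1, by contrast, was rank 3145 and rank 3166.

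**Figure D4:**
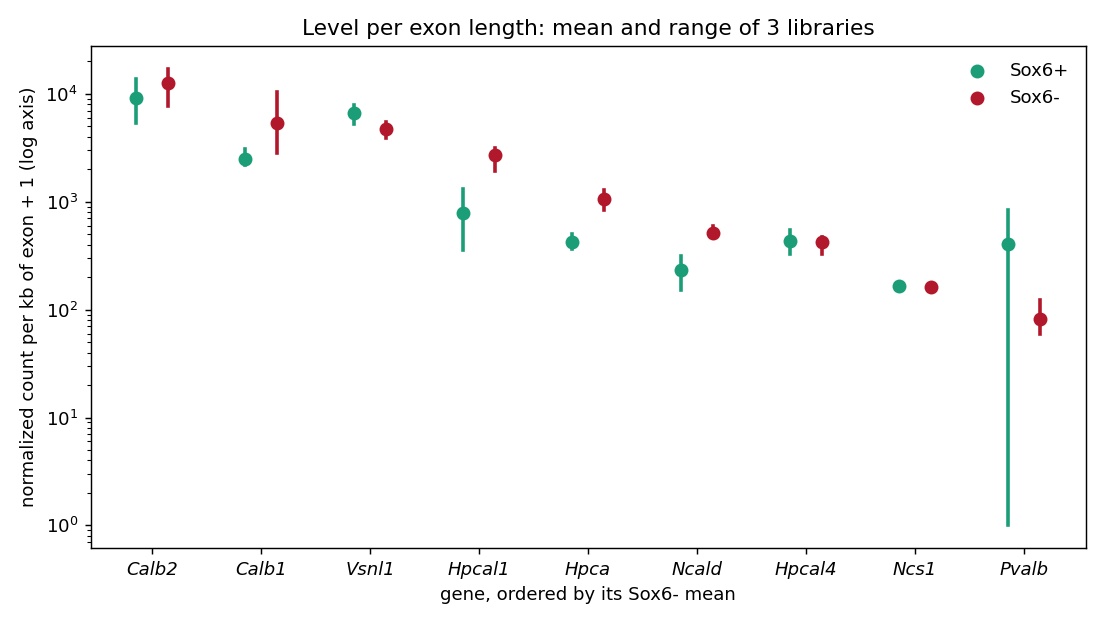
Normalized count per kilobase of exon, plus 1, on a log axis for the 9 genes ordered by their Sox6- mean, with points for group means and lines for the range of 3 libraries. Calb2 is highest in both groups, and the Sox6- ranges of Hpcal1, Hpca and Ncald lie above their Sox6+ ranges.

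The 9 genes did not vary as one. On the log2 scale over the 6 libraries, given as a description since the libraries share 2 groups, Hpcal1 and Ncald had a Pearson r of 0.93, Hpca and Hpcal1 0.83, and Hpca and Ncald 0.78. Vsnl1 ran against Ncald, with r of -0.84. Hpcal4 and Ncs1, whose group means were close, varied together, with r of 0.90, and Calb1 and Calb2 had r of 0.72. Among 9656 genes with a mean of at least 50, those with the highest r with Hpca were Sh3gl3 (0.991), Ctxn3 (0.989), Arg2 (0.987), Rwdd2a (0.987) and Arl10 (0.983). Ctxn3, a cortexin gene, had means of 1.54 in Sox6+ and 536.6 in Sox6-. For Calb1 they were Serac1 (0.997), Fastkd1 (0.991), Fam136a (0.971), Taz (0.969) and Prrc2c (0.966) (Serac1 had means of 62.0 in Sox6+ and 72.6 in Sox6-). Cog7 (0.991), Sh3yl1 (0.990), Prdx4 (0.988), Kctd10 (0.984) and Ypel1 (0.976) were most like Calb2.

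In 5 lists of other EF-hand genes and of partners of the sensors (59 genes, 44 tested), 12 genes had an unadjusted p under 0.05 with limma. The share over all tested genes was 11.4%. At the adjusted threshold 1 gene passed, beside 0.304% of all tested genes, 0 being higher and 1 lower in Sox6+ neurons. That gene was Rcn1, encoding reticulocalbin 1, an EF-hand protein of the endoplasmic reticulum. It lay at 550.5, 482.8 and 424.2 in Sox6+ libraries 103, 825 and 1211 while Sox6- neurons gave 1119.6, 1163 and 1695, with no overlap. The difference was -1.43 (standard error 0.212, adjusted p 0.0345, limma), close in size to that of Hpca. Like that of Hpca, the call was lost without Sox6+ library 825 or 1211, without Sox6- library 825 or 1211, and with edgeR. EdgeR called 0 genes of these lists (background 0.0455%), and 11 had an unadjusted p under 0.05, beside 10.0% of all tested genes. The other secretory pathway genes had differences from -2.38 for Rcn3, which had 0 in Sox6+ libraries 825 and 1211, to 0.21, with Sdf4 at -0.20 and a list median of -0.20 over 5 genes.

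Cytosolic EF-hand proteins outside the 9 (16 tested of 23) had 0 calls with limma and a median of -0.03. Of these 16, 4 had an unadjusted p under 0.05, beside 11.4% of all tested genes. Sri encodes sorcin, a regulator of ryanodine receptors, and averaged 3020.4 ± 447 (Sox6+) and 1853 ± 98.5 (Sox6-; SD, n = 3 each), without overlap (difference 0.70, adjusted p 0.113, limma). Caln1, encoding calneuron 1, a calcium sensor of the Golgi, lay at 2685 ± 763 against 1173 ± 296, also without overlap (difference 1.18, adjusted p 0.114). Cib2, encoding a calcium- and integrin-binding protein, lay at 826 ± 213 against 1215 ± 220.0 (difference -0.57, adjusted p 0.389). DESeq2 on the recovered reads called Caln1 and Sri higher in Sox6+ neurons, as it did 1.31% of all genes.

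The remaining neuronal calcium sensors (5 tested of 7) are mostly the KChIPs, which assemble with Kv4 potassium channels. With limma 0 passed, and 1 had an unadjusted p under 0.05, beside 11.4% of all tested genes. Kcnip3 averaged 934 ± 442 (Sox6+) and 470.3 ± 27.6 (Sox6-; SD, n = 3 each), without overlap (difference 0.89, adjusted p 0.286, limma). Kcnip1 lay at 2406, 0 and 208 in Sox6+ libraries 103, 825 and 1211 while Sox6- neurons gave 3008, 686 and 1437, the same library order as the GABAergic markers. Kcnip2 was low in all libraries, at 69.1 or less.

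S100 proteins, small EF-hand dimers, had 0 calls with limma among 6 tested of 12 and a median of 1.56. An unadjusted p under 0.05 was found for 1, beside 11.4% of all tested genes. The gene S100a6 had an adjusted p of 0.0446 in the authors' deposited table, higher in Sox6+, and its value was 112.7 in Sox6+ library 825, 4.62 in Sox6+ library 1211 and 0 in the other 4 libraries. Sox6+ library 825, the library with macrophage transcripts, held the highest value of all 6, and its part in the median was not tested. S100a1 lay at 296.1 there against 64.1 and 20.3 in the other Sox6+ libraries, and S100b at 102.5 against 1.97 and 30.5. S100a10, an annexin partner, was present in all libraries at 406 or more (difference 0.85, adjusted p 0.588, limma).

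Among 12 tested partners of the sensors, 0 passed with limma, and the median was -0.08. An unadjusted p under 0.05 was found for 5, beside 11.4% of all tested genes. Of these 5, 4 were higher in Sox6+ neurons (5.21% of all tested genes were higher by that measure). Drd2, the D2 autoreceptor to which Ncs1 binds, lay at 528.8, 950.8 and 615.5 (Sox6+) and at 209.1, 417.9 and 188.3 (Sox6-), with no overlap (difference 1.41, adjusted p 0.158, limma). Chrnb2, a nicotinic receptor subunit, was at 228 ± 43.2 against 126 ± 40.7 (difference 0.88, adjusted p 0.375). Il1rapl1, a synaptic adhesion protein that binds Ncs1, lay at 105 ± 36.9 against 230.1 ± 27.4 (difference -1.18, adjusted p 0.236), with no overlap. DESeq2 on the recovered reads called Drd2 higher, against the same background of 1.31%.

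**Figure D5:**
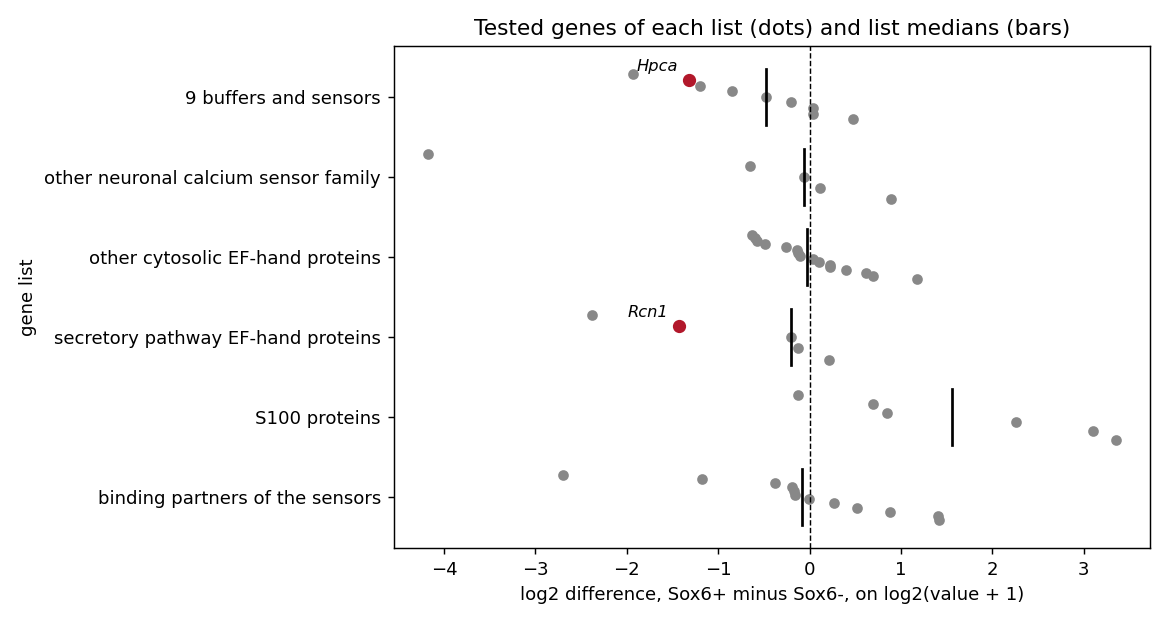
Log2 difference, Sox6+ minus Sox6-, of every tested gene of the 9 buffers and sensors and of 5 related lists (dots, red and named where the adjusted p was under 0.05), with the list median as a bar. Hpca and Rcn1 are the red points, and the S100 genes have the highest median, 1.56.

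In GRCm38 the genes of the 9 lie as follows, by GENCODE M21. Chromosome 4 holds Calb1 (15881264 to 15908064, plus strand), Hpcal4 (123183227 to 123194701, plus) and Hpca (129111570 to 129122036, minus). On chromosome 12 lie Vsnl1 (11325242 to 11436613, minus) and Hpcal1 (17690856 to 17791933, plus), and on chromosome 15 Ncald (37366175 to 37792570, minus) and Pvalb (78191114 to 78206400, minus). Calb2 lies on chromosome 8 (110137502 to 110168210, minus) and Ncs1 on chromosome 2 (31245823 to 31295989, plus).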

How the data were processed

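Per the labels' protocols, RNA of sorted neurons was isolated with a mirVana kit and sequenced from stranded TruSeq mRNA libraries. For processing, the submitters' processing notes list STAR, HTSeq, cutadapt, FastQC and DESeq2, with mm10 and GRCm38 as builds. Their versions and settings, and whether counting used strand, are not given in these sources. The authors deposited 1 table with a normalized signal per gene for 6 libraries, its mean, the log2 change from Sox6+ to Sox6- and its error, the test's score, and the p-value before and after adjustment. Each deposited signal was a count of reads over the library's size factor: 100% of values above 0 were whole multiples, within 0.01, of a step of 0.924 to 1.14 per library.

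Genes with a mean of at least 10 were tested with limma 3.58.1 (trend, robust) on log2(value + 1), 2-sided, with Benjamini-Hochberg adjustment. Alternatives included edgeR 4.0.16 and DESeq2 1.42.0 on the recovered reads (R 4.3.3). The fits were tested on simulated data. Between libraries, chi-square per gene was at least 34.4, so no library was a copy. The 9 genes, lists and tests were chosen with earlier results of these data known. Genes named outside the 9 were those past the threshold or of the 3 smallest p per list, and the 5 of highest r with Hpca, Calb1 and Calb2. Tmem54, Gm49397, Gm28221, Aldoc, S100a6, Th, Slc6a3, Gad1, Gad2, Sst, Slc17a6, Slc17a7, Slc17a8, Lyz2, Tyrobp, Cd68, C1qa, C1qb and Aif1 were named after their values were seen. Some list genes were matched by an older symbol.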

Additional observations from a re-analysis of the deposited data

How the results depend on the processing

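Over 20 alternatives the differences of Hpca, Hpcal1, Ncald, Calb1 and Vsnl1 kept their sign. Of the 9 genes, 1 passed as reported; 2 passed with the library number as a block (replicate block, with limma or with edgeR), 3 with DESeq2, 0 with no filter, 0 without trend and robust moderation, 0 with edgeR, and from 0 to 3 when 1 library, or both of a number, was left out. Over all tested genes, 40 passed as reported, 267 with the replicate block, 120 with edgeR and the replicate block, 6 with edgeR, 387 with DESeq2, 69 with a pseudocount of 8 and 69 with quantile normalization, 21 with no filter, 24 without trend and robust moderation, from 1 (Sox6- library 1211) to 162 (Sox6+ library 103) with 1 library left out, and 82, 12 and 1 without both libraries 103, 825 and 1211. In the other 5 lists 1 passed as reported, 5 with the replicate block (Rcn1 lower, and Caln1, Drd2, S100a10 and Sri higher), 3 with edgeR and the replicate block, 4 with DESeq2, 0 with no filter, 0 without moderation, 0 with edgeR, and from 0 to 2 with libraries left out. The library numbers were not taken as pairs, since not every correlation was over 0.1: deviations from the group mean correlated at 0.268, 0.172 and 0.0789 for numbers 103, 825 and 1211, although each library correlated best with its own number. With the replicate block Hpca and Ncald passed (adjusted p 0.0020 and 0.00556, limma), where 2.03% of all tested genes did.

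Differences that turned sign were small or rested on 1 library. For Pvalb the difference ran from -2.02 to 2.86 with 1 library left out, and was 0.13 when Sox6- library 1211 was dropped, 0.68 with a pseudocount of 8, 0.33 with quantile normalization, 2.73 without number 825, 2.31 with edgeR, 1.32 with edgeR and the replicate block, and 2.32 with DESeq2. Hpcal4 had -0.029 with quantile normalization, -0.040 without number 825, and from -0.14 (Sox6+ library 825 dropped) to 0.23 with 1 library left out, with -0.13 when Sox6- library 103 was dropped. Ncs1 ran from -0.016 to 0.069, and Calb2 had 0.12 without number 825. By Spearman rho, 3, 1 and 1 of the 5 genes most like Hpca, Calb1 and Calb2 were also at or above the fifth highest value. Depth did not limit the 9 genes, whose lowest value above 0 was 60.4, apart from the 0 of Pvalb.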
